A study of Homo sapiens with 24 samples.

Results

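Neural progenitor cells in which the same gene was knocked down with 2 different hairpins were compared with each other. In neural progenitor cells (NPCs) derived from the established human stem cell line H9, of embryonic origin, 5 libraries carrying the short hairpin RNA sh1 against KDM2A were set against 5 libraries carrying sh4 against the same gene. These 10 libraries, of 24 in the series, were chosen by their labels and not by any measured value. A further 5 NPC libraries with a scrambled hairpin, NC, served only to place the level of each gene. The sh1 and sh4 groups are labelled KDM2A knockdown (with siRNA-1 and siRNA-4 named as the treatments) and NC is labelled WT. All 3 groups were transduced with lentivirus as stem cells and kept under puromycin at 1 ug per ml. The labels do not say whether a line was 1 clone or how many cultures stand behind the 5 libraries of each group. P-values therefore measure the spread between these libraries, which may be technical.

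KDM2A removes methyl groups from lysine 36 of histone H3 and binds, through a CXXC zinc finger, to DNA rich in unmethylated CG dinucleotides, which lie at many gene starts. A short hairpin RNA is processed into a small RNA that guides the destruction of matching transcripts. Neural progenitor cells divide and give rise to neurons and glia, and their regional identity along the neural tube is set by signals such as WNT, BMP and retinoic acid. Libraries of whole cultures were measured, so fewer cells of a type and less RNA per cell cannot be told apart in anything that follows.

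Of 10221 genes listed in the NPC table, 9636 had enough counts in the 10 hairpin libraries to be tested and 585 did not. The libraries held 15.3 to 20.2 M counts with sh1, 18.9 to 20.1 M with sh4 and 12.7 to 18.2 M with NC. Levels are given in CPM (counts scaled to a common total of listed genes), and they are not corrected for gene length, so levels are compared between groups only. The listed genes were taken as a set already chosen for a difference between sh1 and NC, since 99.3% of the 9860 that could be tested passed an adjusted p of 0.05 in that contrast. Between sh4 and NC 88% did. Genes outside the table, SOX2 among them, were not analysed here.

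KDM2A itself (chromosome 11) did not differ detectably between the 2 hairpins. Its levels were 97.7, 89.6, 94.3, 88.5 and 88.7 CPM with sh1, 92.3, 95, 102, 93.4 and 90.5 CPM with sh4, and 200, 184, 204, 187 and 164 CPM with NC. The sh1 and sh4 libraries overlapped, and every one of them lay below every NC library. The log2 fold change of sh1 over sh4 was -0.04 (95% interval -0.15 to 0.06, edgeR adjusted p = 0.537 by the quasi-likelihood test with Benjamini-Hochberg adjustment, used throughout). A difference of more than 0.15 in size on the log2 scale lies outside that interval.

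Between the hairpins 428 of 9636 tested genes were called, which is 4.44%. Called genes are those with an adjusted p below 0.05 and a change of 1 or more on the log2 scale in either direction, which are the limits of the study's design text. With sh1, 196 genes were higher (2.03%) and 232 lower (2.41%) than with sh4. In 410 of the 428 called genes the 5 sh1 and the 5 sh4 libraries did not overlap. The limits of a call favour such separation, and its share over all tested genes was not counted. A further 2329 genes passed the adjusted p with a smaller change, and 8660 genes (89.9%) had a fitted change of less than 1.5 times. The median log2 fold change over all tested genes was 0.00705.

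**Figure D1:**
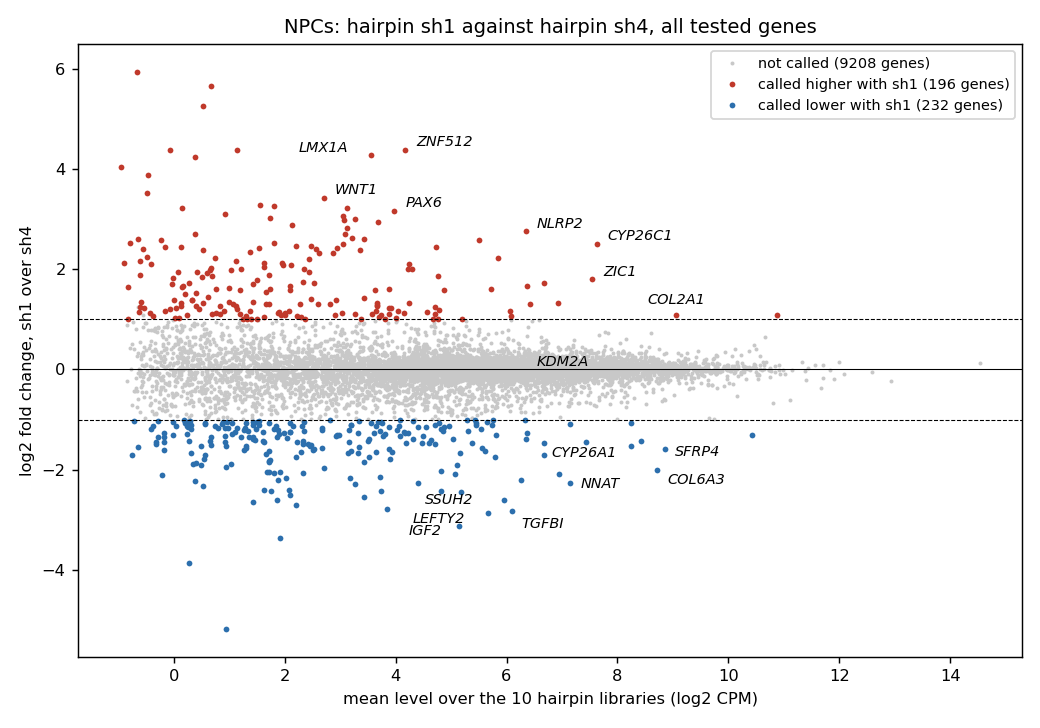
Log2 fold change of sh1 over sh4 (vertical) against the mean level over the 10 hairpin libraries in log2 CPM (horizontal), 1 point per tested gene, with dashed lines at a change of 1 in size. The 196 genes called higher and the 232 called lower lie on both sides of a band of 9208 uncalled genes, and KDM2A lies in the band at -0.04.

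ZNF512, a zinc finger protein gene on chromosome 2, and LMX1A, a LIM homeodomain transcription factor gene on chromosome 1, headed the genes higher with sh1 among those with a mean log2 CPM of at least 3. ZNF512 stood at 34.5, 33.4, 32.7, 35.9 and 36.1 CPM with sh1, at 1.59, 1.44, 1.6, 1.63 and 1.98 CPM with sh4, and at 25.1, 25.5, 24.2, 27.8 and 27.6 CPM with NC. The sh4 libraries thus stood apart from both other groups, with a 20.9-fold difference between the hairpins (log2 fold change 4.39, SE 0.091, edgeR adjusted p = 2.18e-14). LMX1A, which specifies the roof plate and midbrain dopamine neuron progenitors, stood at 23.8, 24.6, 22.8, 21.6 and 19 CPM with sh1, at 1.1, 0.873, 1.18, 1.1 and 1.5 CPM with sh4, and at 7.48, 7.58, 5.6, 8.44 and 9.24 CPM with NC. All 3 groups were separate for this gene, with sh1 the highest and sh4 the lowest (19.3-fold, log2 fold change 4.27, SE 0.13, edgeR adjusted p = 1.24e-12).

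CG dinucleotides were counted in the 300 bases around the gene start, 250 before and 50 after it, because KDM2A binds such sequence. Starts are those of the RefSeq promoter table (GRCh38.p14). The promoters of the 152 called higher genes with an entry held a median of 22 CG and those of 168 called lower genes 19.5, against 26 in 7847 tested genes and 14 in all 27305 promoters of the table. The middle 50% of promoters ran from 11.8 to 30 CG for genes called higher, from 7 to 31 for genes called lower and from 18 to 34 for all tested genes, so these ranges overlap widely. No test was made of this. The promoters of 2 genes higher and 2 genes lower with sh1 are shown as examples of windows with many and with few CG. Every CG is in capitals and the strand of the gene is read 5′ to 3′. The 4 windows do not represent the called genes of either direction. ZNF512 (chr2:27582792-27583091, plus strand) has 22 CG, LMX1A (chr1:165356666-165356965, minus strand) has 32, COL6A3 (chr2:237414115-237414414, minus strand) has 4 and NPR3 (chr5:32690622-32690921, plus strand) has 2.
ZNF512: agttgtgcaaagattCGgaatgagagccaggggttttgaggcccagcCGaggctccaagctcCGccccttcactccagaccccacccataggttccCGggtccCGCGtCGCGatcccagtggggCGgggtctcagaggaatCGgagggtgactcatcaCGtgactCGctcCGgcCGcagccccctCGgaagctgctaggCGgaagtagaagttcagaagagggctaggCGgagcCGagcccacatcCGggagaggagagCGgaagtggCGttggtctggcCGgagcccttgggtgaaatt
LMX1A: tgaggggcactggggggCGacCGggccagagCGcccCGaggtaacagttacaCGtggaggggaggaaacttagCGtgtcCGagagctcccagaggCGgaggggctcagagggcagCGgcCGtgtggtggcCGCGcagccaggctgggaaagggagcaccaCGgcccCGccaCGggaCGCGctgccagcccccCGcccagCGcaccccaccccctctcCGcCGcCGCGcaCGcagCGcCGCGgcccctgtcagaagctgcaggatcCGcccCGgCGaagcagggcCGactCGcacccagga
COL6A3: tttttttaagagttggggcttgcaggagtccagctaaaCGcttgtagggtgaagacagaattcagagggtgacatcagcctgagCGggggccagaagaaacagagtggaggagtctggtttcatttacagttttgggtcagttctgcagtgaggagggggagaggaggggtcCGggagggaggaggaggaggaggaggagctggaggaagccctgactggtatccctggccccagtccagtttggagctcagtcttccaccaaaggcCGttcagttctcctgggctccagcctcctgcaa
NPR3: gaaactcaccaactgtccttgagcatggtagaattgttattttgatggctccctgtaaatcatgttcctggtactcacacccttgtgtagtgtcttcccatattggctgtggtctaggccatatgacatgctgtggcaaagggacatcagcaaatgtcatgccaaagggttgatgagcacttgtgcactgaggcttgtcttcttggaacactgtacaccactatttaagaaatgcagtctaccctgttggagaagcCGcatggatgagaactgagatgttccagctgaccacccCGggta

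The letters differ as plainly as the counts do. CG recurs along the whole of the ZNF512 and LMX1A windows, and it is spread thinly over the COL6A3 window. In NPR3 both CG stand near the end of the window, downstream of a long stretch with none. Among other named genes, WNT1 and PCDHGA3, higher with sh1, had 34 and 4 CG, and HEYL and INHBA, lower with sh1, had 41 and 1.

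**Figure D2:**
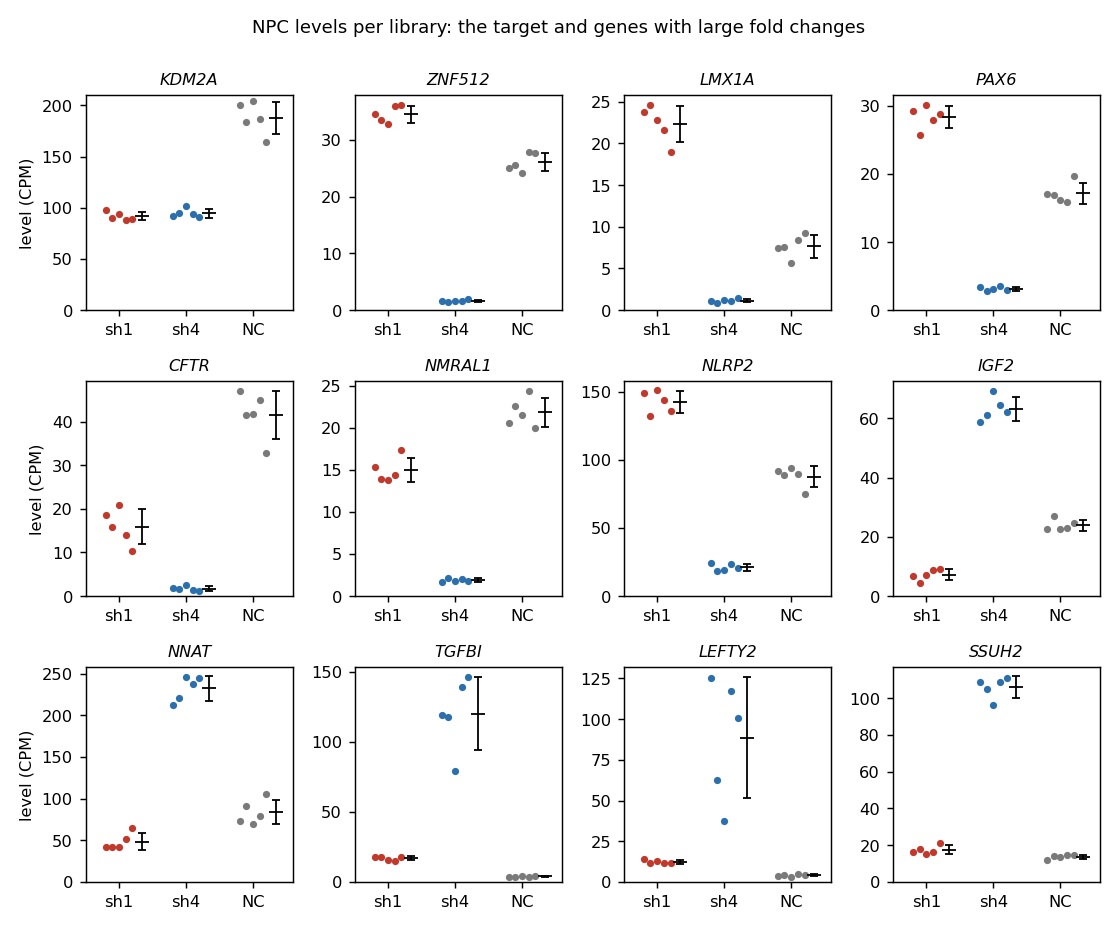
Level in CPM (vertical, linear from 0) in each NPC library with sh1, sh4 and NC for KDM2A and 11 genes with large changes; each point is a library and the bar beside it is the mean with 1 SD (n = 5 per group). The sh1 and sh4 libraries overlap for KDM2A, ZNF512 is near 0 with sh4 only, IGF2 is lowest with sh1 and highest with sh4, and LEFTY2 varies widely with sh4.

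The other genes heading the higher side carried a mix of roles. PAX6, a transcription factor of forebrain and eye progenitors (chromosome 11), was 28.4 ± 1.67 CPM with sh1, 3.16 ± 0.317 with sh4 and 17.2 ± 1.5 with NC (SD, n = 5 each). Its 5 sh1 libraries ran from 25.8 to 30.2 CPM and its 5 sh4 libraries from 2.83 to 3.57 CPM (log2 fold change 3.17, edgeR adjusted p = 7.01e-13). CFTR, a chloride channel gene (chromosome 7), stood at 18.5, 15.9, 20.9, 14 and 10.3 CPM with sh1, at 1.92, 1.54, 2.57, 1.37 and 1.07 CPM with sh4, and at 46.9, 41.5, 41.7, 44.9 and 32.7 CPM with NC. Here sh1 lay between the other groups, and its log2 fold change over sh4 was 3.22 (SE 0.22).

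Other genes of the higher side, 2 of them on chromosome X, were also low with sh4. NMRAL1, a sensor of cellular redox state (chromosome 16), stood at 14.9 ± 1.43 CPM with sh1, 1.87 ± 0.219 with sh4 and 21.8 ± 1.76 with NC (SD, n = 5 each, log2 fold change 2.99). PXMP4, a peroxisomal membrane protein gene (chromosome 20), was 14.6 ± 2.03 CPM with sh1, 2.26 ± 0.193 with sh4 and 24.3 ± 0.895 with NC. CHCHD2, a mitochondrial protein gene (chromosome 7), was 14.1 ± 1.04, 2.47 ± 0.209 and 11.7 ± 1.04 CPM in the same order of sh1, sh4 and NC, and it has processed copies that may share its reads. PWWP3B on chromosome X had 22.8 ± 2.18 CPM with sh1, 2.95 ± 0.299 with sh4 and 33.8 ± 2.53 with NC. TENM1, a teneurin gene also on X, had 18.5 ± 1.87, 3.06 ± 0.46 and 14.4 ± 1.07 CPM. In these 5 genes sh4 was far below both other groups.

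No gene met the limits set for an on or off pattern, a mean under 1 CPM with one hairpin and at least 8 CPM with the other. With the lower limit at 2 CPM, 9 genes did, and in all 9 sh4 was the low group and sh1 the high one. ZNF512, LMX1A, CFTR, PCDHGA3, NMRAL1, WNT1 and MKRN3 were among them.

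On the lower side IGF2, a growth factor gene expressed from the paternal copy in most tissues (chromosome 11), changed most among genes of that level. It stood at 6.68, 4.57, 6.96, 8.7 and 9.1 CPM with sh1, at 58.8, 61.1, 69.4, 64.7 and 62.3 CPM with sh4, and at 22.6, 26.9, 22.6, 23 and 24.6 CPM with NC. The groups did not overlap and NC lay between the hairpins (8.73-fold lower with sh1 than with sh4, log2 fold change -3.13, SE 0.12, edgeR adjusted p = 2.1e-11). IGF2 overlaps a readthrough transcript with the insulin gene, and reads of the pair may be shared.

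SSUH2 (chromosome 3) was 17.4 ± 2.45 CPM with sh1, 106 ± 5.85 with sh4 and 13.8 ± 1.11 with NC (log2 fold change -2.61, edgeR adjusted p = 1.5e-12). GDA, the guanine deaminase gene, was 3.11 ± 0.527 CPM with sh1, 18.1 ± 3.81 with sh4 and 1.93 ± 0.345 with NC. NPR3, the clearance receptor of natriuretic peptides, stood at 9.62, 12.8, 9.63, 11 and 11.9 CPM with sh1, at 61.0, 62.7, 44.6, 64.2 and 70.2 CPM with sh4, and at 2.69, 2.44, 2.88, 2.57 and 3.47 CPM with NC. For all 3 genes sh4 was the highest group. CMKLR1, the chemerin receptor gene, had a log2 fold change of -2.26 (7.23 ± 0.567 CPM with sh1, 34.5 ± 2.52 with sh4, 1.86 ± 0.366 with NC). AQP1, a water channel gene, had one of -2.42 (4.1 ± 0.341, 22.1 ± 1.51 and 2.54 ± 0.637 CPM). STC1, a secreted glycoprotein hormone gene, had one of -2.43, with 8.76 ± 0.445 CPM with sh1, 47.0 ± 10.7 with sh4 and 14.4 ± 3.47 with NC. LRRC32, which tethers latent TGF-beta to the cell surface, and OPRK1, the kappa opioid receptor gene, had changes of -2.28 and -2.15.

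The study's labels give no purpose for setting the hairpins against each other, so pathways were described through 54 gene lists made from textbook knowledge. Over all tested genes 4.44% were called, and each list is read beside that share and beside the median of 0.01 over all genes, with no test of a list. Calls were rarer at higher levels. Of 7829 tested genes with a mean log2 CPM of at least 3, 62 were called higher and 99 lower. Over all 9636 tested genes these counts were 196 and 232. The share of a list therefore also depends on the levels of its members, and no share matched for level was computed. All called members may be named, those beyond the first 5 of a list having been chosen after their values were seen. In 18 lists, with 436 tested members, there was no call.

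The roof plate and cortical hem are signalling strips along the dorsal midline of the neural tube that secrete WNT and BMP proteins. Of 21 tested genes of these strips, 9 were called higher with sh1 and 0 lower (42.9% called, list median 0.88). Beside LMX1A they were WNT1, WNT2B, WNT8B, ZIC1, ID3, EMX2, RSPO1 and DMRTA1. WNT1, the founding WNT ligand and a midbrain organiser signal (chromosome 12), stood at 13.3, 9.37, 14.8, 13.2 and 9.4 CPM with sh1, at 1.2, 1.08, 0.978, 1.16 and 1.12 CPM with sh4, and at 19.3, 19.7, 17.3, 14.9 and 13 CPM with NC. Its sh4 libraries were below all others while sh1 overlapped NC (log2 fold change 3.43, SE 0.17, edgeR adjusted p = 3.17e-10).

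ZIC1, a zinc finger transcription factor of dorsal neural cells, stood at 323, 267, 309, 302 and 258 CPM with sh1, 97.4, 77.8, 89.4, 84.1 and 69.4 CPM with sh4, and 260, 232, 246, 230 and 211 CPM with NC. The hairpins did not overlap, and sh1 and NC did (log2 fold change 1.80, edgeR adjusted p = 1.62e-10). ID3, a target and inhibitor in BMP signalling, was 30.9 ± 5.65 CPM with sh1, 7.2 ± 0.766 with sh4 and 40.7 ± 7.75 with NC (SD, n = 5 each). EMX2, a homeobox gene of the dorsal forebrain, had a log2 fold change of 1.94 at low levels (1.52 CPM with sh1, 0.39 with sh4). RSPO1, a secreted enhancer of WNT signalling, and DMRTA1, a transcription factor gene, had 1.22 and 1.16, with RSPO1 at only 0.821 CPM with sh1 and 0.347 with sh4.

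Among the WNT genes as a whole, 10 of 42 were called higher and 2 lower with sh1, with a list median of 0.01. The called ligands were WNT1, WNT10B (2.82), WNT2B (2.58), WNT4 (2.00) and WNT8B (1.12), all higher with sh1. FZD10, a WNT receptor gene on chromosome 12, stood at 18.1, 16.1, 17.4, 18.3 and 16.2 CPM with sh1, at 2.52, 1.95, 2.47, 2.26 and 1.44 CPM with sh4, and at 10.1, 11.4, 10.6, 10.7 and 10 CPM with NC. For this receptor gene sh1 was above NC and sh4 below it (log2 fold change 3.01, SE 0.12, edgeR adjusted p = 2.42e-11). The feedback targets NKD1, RNF43 and SP5 had log2 fold changes of 1.01, 1.15 and 1.39, with SP5 at only 1.67 CPM with sh1 and 0.631 with sh4. SFRP4, a secreted antagonist, went the other way, at 231 ± 18.4 CPM with sh1, 691 ± 72.7 with sh4 and 666 ± 31.5 with NC (log2 fold change -1.58), and DACT2, another inhibitor, had -1.24. The remaining 30 members were not called, and they lie on both sides of 0 in the plot of the gene lists.

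**Figure D3:**
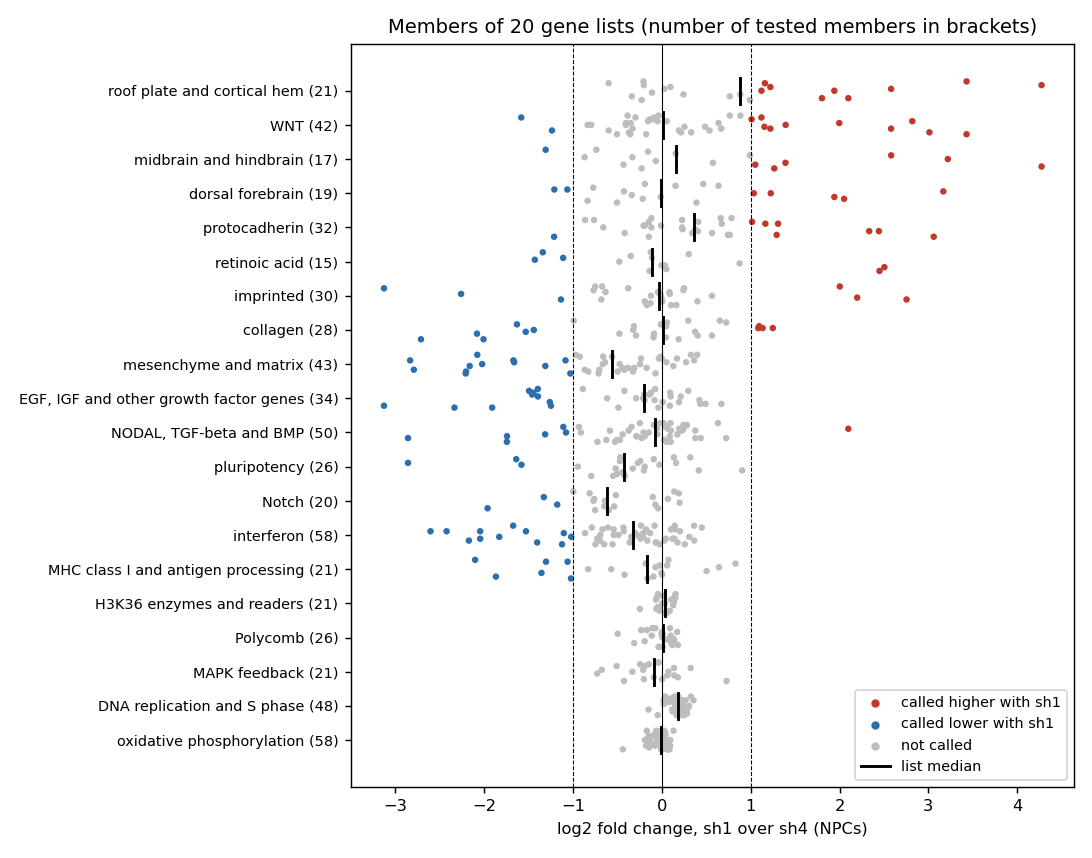
Log2 fold change of sh1 over sh4 (horizontal) for the tested members of 20 gene lists (rows, number tested in brackets); points are genes, coloured by call, and the black bar is the list median. The roof plate list sits to the right (median 0.88), the mesenchyme, Notch and interferon lists to the left. The H3K36, Polycomb and oxidative phosphorylation lists have medians near 0 and no call, and the DNA replication list has no call and a median of 0.19.

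Regional transcription factor genes followed no single direction. Of 17 genes of the midbrain and hindbrain, 6 were higher and 1 lower with sh1, and of 19 genes of the dorsal forebrain 5 were higher and 2 lower. LHX5, BARHL2, IRX2, DBX1 and OTX1, all homeobox genes, were higher beside LMX1A. LHX5 was near the lower limit of detection with sh4 (1.79 ± 0.617 CPM with sh1, 0.191 ± 0.0636 with sh4, 0.271 ± 0.0614 with NC). BARHL2, DBX1 and OTX1 were also low, at 1.29, 1.66 and 1.74 CPM with sh1 and 0.211, 0.63 and 0.713 CPM with sh4. EGR2, a hindbrain segment gene that is also an immediate early gene, was lower (4.48 ± 0.607, 11 ± 0.764 and 2.73 ± 0.203 CPM with sh1, sh4 and NC). In the dorsal forebrain list PAX6, SP8, LHX2, FEZF1 and EMX2 were higher. LHX2, which specifies cortex and eye field, had 20.5 ± 2.84 CPM with sh1, 8.77 ± 0.862 with sh4 and 8.85 ± 0.973 with NC, so here sh1 and not sh4 stood apart from NC. BCL11A (-1.06) and NFIX (-1.21), transcription factors of later cortical cells, were lower.

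Neural progenitor genes were called in 6 of 32 cases, 5 higher (PAX6, LIX1, ZIC1, SP8 and LHX2) and POU3F1 lower. LIX1 stood at 44.9 ± 2.44 CPM with sh1, 8.23 ± 1.57 with sh4 and 24.9 ± 0.839 with NC (log2 fold change 2.45). The labelled cell type was checked on 10 markers, of which 8 are in the table. NES, CDH2, MSI1 and SOX1 were measured at 1760, 717, 142 and 33.3 CPM with sh1, at 2680, 720, 140 and 49.9 with sh4, and at 2170, 810, 174 and 13.1 with NC. HES5 was under 1 CPM in every library, and SOX2 and SOX3 were not analysed here. The 8 markers summed to 2660 to 2900 CPM with sh1, 3500 to 3960 with sh4 and 3120 to 3310 with NC, which do not overlap, and NES makes up most of each sum.

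Retinoic acid genes split by enzyme. CYP26C1, which breaks down retinoic acid (chromosome 10), stood at 379, 295, 372, 350 and 284 CPM with sh1, at 65.6, 52.3, 60.5, 59.8 and 58.0 CPM with sh4, and at 281, 314, 272, 308 and 331 CPM with NC. CYP26A1, an enzyme of the same reaction on the same chromosome, stood at 219, 178, 215, 175 and 147 CPM with sh1, at 586, 437, 494, 534 and 465 CPM with sh4, and at 112, 124, 107, 116 and 118 CPM with NC. The sh4 libraries were thus the lowest for CYP26C1 (log2 fold change 2.50) and the highest for CYP26A1 (-1.43). ALDH1A2 (2.45) and ALDH1A3 (-1.11), which make retinoic acid, also went opposite ways, and TGM2 (-1.34), a target gene, was lower with overlapping libraries. Levels of ALDH1A2 were low, 1.36 CPM with sh1 and 0.244 with sh4. In all, 2 of 15 genes were higher and 3 lower.

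**Figure D4:**
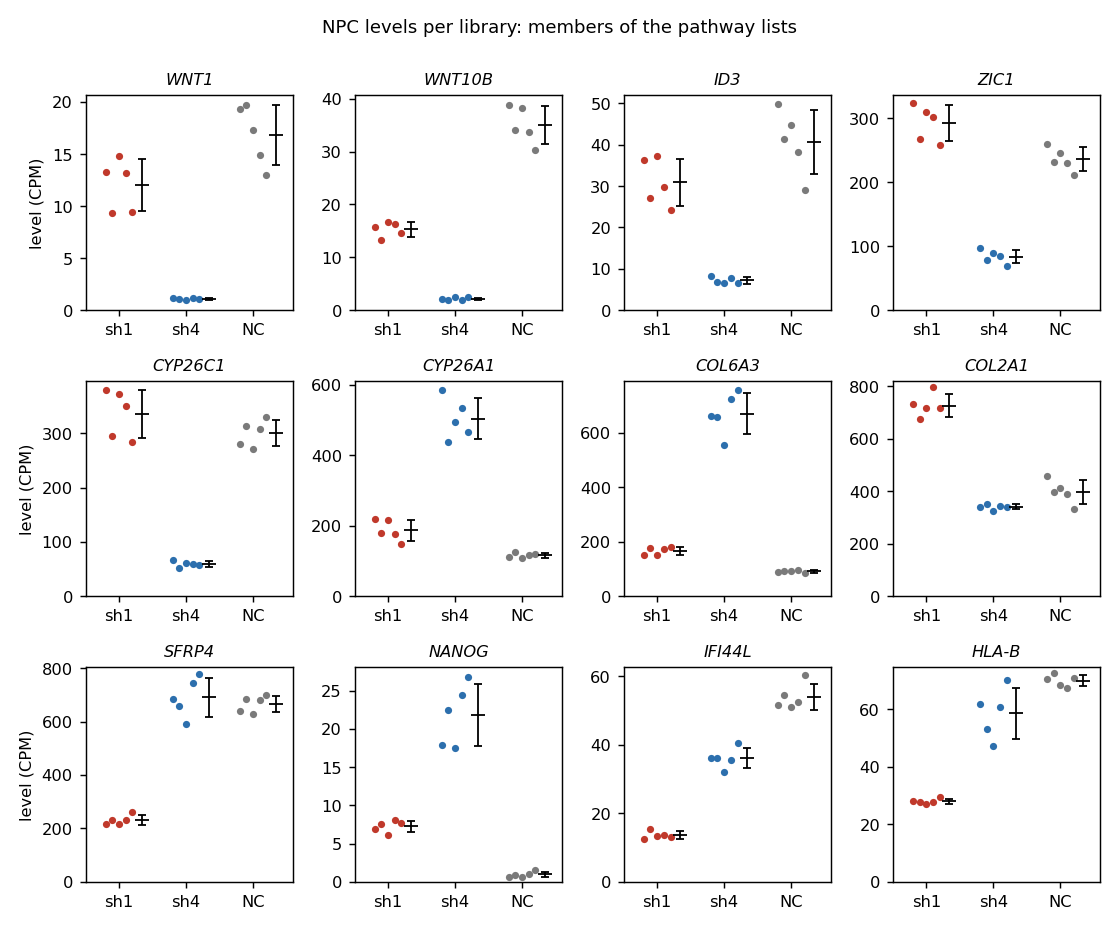
Level in CPM (vertical, linear from 0) in each NPC library with sh1, sh4 and NC for 12 members of the gene lists; each point is a library and the bar beside it is the mean with 1 SD (n = 5 per group). WNT1, WNT10B, ID3, ZIC1 and CYP26C1 are lowest with sh4, CYP26A1 and COL6A3 are high with sh4, COL2A1 is high with sh1, and SFRP4, IFI44L and HLA-B are low with sh1.

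Of 43 tested genes in the list of mesenchyme and its matrix, 12 were lower with sh1 and 0 higher (27.9% called, list median -0.56). TGFBI, a TGF-beta-induced adhesion protein (chromosome 5), stood at 18.1, 17.5, 15.5, 15.2 and 18.0 CPM with sh1, at 119, 118, 78.9, 139 and 146 CPM with sh4, and at 3.32, 3.53, 4.42, 3.85 and 4.57 CPM with NC. The groups were separate in the order sh4, sh1, NC, and sh4 replicate 3 was the lowest of its group (log2 fold change -2.83, SE 0.14, edgeR adjusted p = 2.3e-10). The small proteoglycans of collagen fibrils behaved likewise. DCN was 3.58 ± 0.666 CPM with sh1, 24.6 ± 2.24 with sh4 and 2.4 ± 0.652 with NC (log2 fold change -2.79), LUM 27.1 ± 2.51, 125 ± 7.85 and 9.98 ± 1.16 CPM (-2.20), and BGN had -1.67.

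PRRX1, a transcription factor of limb and head mesenchyme, was 11.1 ± 1.43 CPM with sh1, 45.1 ± 4.62 with sh4 and 19.3 ± 2.28 with NC (log2 fold change -2.02). TBX18 and FOXC2 had -2.21 and -1.03, with FOXC2 at only 0.725 CPM with sh1 and 1.5 with sh4. LAMA4, a laminin chain of vessel and nerve sheaths, was 12.8 ± 0.748, 54.2 ± 4.33 and 16.6 ± 1.21 CPM with sh1, sh4 and NC. Fibronectin, FN1, had -1.31. The other called members were MFAP4, MMP14 and CCN4. COL3A1, a fibrillar collagen and 1 of the 5 mesenchyme markers in the table, was not called (-0.09), and the sum of these 5 markers overlapped between hairpins at 3840 to 4870 CPM with sh1 and 4400 to 5320 with sh4, against 5850 to 6610 with NC.

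Collagen genes were called in both directions, 4 higher and 6 lower of 28, with a median of 0.02. COL6A3, a chain of the microfibrillar collagen VI on chromosome 2, stood at 152, 175, 151, 174 and 181 CPM with sh1, at 660, 656, 556, 722 and 756 CPM with sh4, and at 87.2, 93.8, 90.6, 97.3 and 83.8 CPM with NC (log2 fold change -2.01, edgeR adjusted p = 1.73e-11). Its partner chain COL6A1 was 156 ± 11 CPM with sh1, 452 ± 42.9 with sh4 and 242 ± 11.5 with NC (-1.53). COL12A1, a fibril-associated collagen, had -2.08, COL5A3 -1.63, COL5A1 -1.44 and COL10A1, the collagen of growth plate cartilage, -2.71. In all 6 of these genes every sh4 library lay above every sh1 library, a separation that the limits of a call favour. COL2A1, the main collagen of cartilage, was instead higher, at 732, 674, 716, 797 and 716 CPM with sh1, 341, 352, 326, 343 and 340 CPM with sh4, and 459, 398, 413, 389 and 332 CPM with NC (log2 fold change 1.09, edgeR adjusted p = 5e-11). COL14A1, COL9A2 and COL4A4 were also higher, at 1.25, 1.09 and 1.13.

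In the list of EGF, IGF and other growth factor genes, which holds ligands, receptors and binding proteins and is separate from the WNT and TGF-beta lists, 10 of 34 were lower with sh1 and 0 higher, with a list median of -0.20. IGFBP3, IGFBP5 and IGFBP7 bind or modulate insulin-like growth factors, and they were 14.4 ± 2.36, 48.7 ± 3.02 and 18.0 ± 1.53 CPM with sh1 and 54.2 ± 9.7, 117 ± 20.1 and 47.5 ± 8.64 CPM with sh4. In NC they were 5.91 ± 1.01, 73.2 ± 11.2 and 15.9 ± 0.976 CPM. NTRK2, the BDNF receptor gene, was 54.8 ± 3.7 CPM with sh1, 151 ± 4.08 with sh4 and 273 ± 19.8 with NC (log2 fold change -1.46). The receptor kinase gene ALK had -2.33, and the ligand genes HGF, NRG3, PDGFB and TGFA had -1.49, -1.45, -1.39 and -1.25. ALK, HGF and NRG3 were at low levels, 0.435, 0.359 and 0.412 CPM with sh1 and 2.21, 1.01 and 1.13 CPM with sh4. PDGFB stood at 44.7 CPM with sh1 and 117 with sh4.

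TGF-beta family genes were called in 7 of 50 cases, 6 lower and 1 higher, with a median of -0.07. Ligands made up most of the lower calls: INHBA, which encodes the activin A subunit (25.3 ± 2.2 CPM with sh1, 84.5 ± 10.8 with sh4, 10.3 ± 1.49 with NC), TGFB3 (2.03 ± 0.317, 6.87 ± 0.976 and 3.97 ± 0.602 CPM), TGFB1 (-1.11) and TGFB2 (-1.31). LTBP2, a latent TGF-beta binding protein gene, had -1.08. ID3 was the 1 higher call. LEFTY2, an inhibitor and target of NODAL signalling, stood at 14.2, 11.7, 12.7, 11.5 and 11.4 CPM with sh1, at 125, 62.7, 37.7, 117 and 101 CPM with sh4, and at 3.42, 4.46, 3.32, 4.69 and 4.04 CPM with NC. The sh4 libraries spread widely, with replicate 3 the lowest, yet all 5 lay above all sh1 libraries (log2 fold change -2.86, SE 0.26, edgeR adjusted p = 4.2e-07).

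LEFTY2 is also a gene of pluripotent cells, and of 26 tested pluripotency genes 3 were lower with sh1 and 0 higher (median -0.42). The other called members were transcription factors that hold stem cells undifferentiated. NANOG stood at 6.88, 7.55, 6.18, 8.04 and 7.72 CPM with sh1, at 17.9, 22.5, 17.5, 24.4 and 26.8 CPM with sh4, and at 0.684, 0.934, 0.663, 1.06 and 1.58 CPM with NC (log2 fold change -1.58, edgeR adjusted p = 7.26e-08). NANOG has processed copies that may share its reads. PRDM14 was 7.33 ± 0.907 CPM with sh1, 22.9 ± 1.96 with sh4 and 1.36 ± 0.61 with NC (-1.64). Both were above NC with each hairpin and higher with sh4 than with sh1. POU5F1 was not called, at 99.9 CPM with sh1, 135 with sh4 and 359 with NC (-0.44). The 6 pluripotency markers summed to 1340 to 1440 CPM with sh1, 1090 to 1210 with sh4 and 859 to 914 with NC. The hairpins thus stood in the opposite order to NANOG, while NC was lowest for both. LIN28A makes up most of the sum (1270 CPM with sh1, 953 with sh4, 515 with NC).

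Interferon response genes were lower with sh1 where they were called, 12 of 58 with 0 higher and a list median of -0.32. IFI44L, an interferon-induced antiviral gene (chromosome 1), stood at 12.5, 15.4, 13.3, 13.8 and 13.1 CPM with sh1, at 36.1, 36.2, 32.1, 35.6 and 40.4 CPM with sh4, and at 51.5, 54.4, 50.9, 52.5 and 60.3 CPM with NC. The groups were separate in the order NC, sh4, sh1 (log2 fold change -1.40, SE 0.077, edgeR adjusted p = 1.11e-09). XAF1, a pro-apoptotic factor, was 0.963 ± 0.255 CPM with sh1, 5.94 ± 0.657 with sh4 and 5.83 ± 0.999 with NC (-2.60). MX2, an antiviral GTPase gene, was 0.995 ± 0.177, 5.41 ± 0.522 and 1.89 ± 0.396 CPM (-2.42). IFI27, a mitochondrial interferon-induced protein gene, was 3.21 ± 0.953, 14.6 ± 2.23 and 13.3 ± 1.1 CPM (-2.17).

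The sensors of double-stranded RNA OAS1, OAS3 and OAS2, which are neighbours on chromosome 12, had log2 fold changes of -2.04, -1.10 and -1.67. OAS1 was 1.39 ± 0.545 CPM with sh1, 5.83 ± 0.926 with sh4 and 6.28 ± 0.568 with NC. The remaining calls were GBP1, GBP3, MX1, SAMD9L and RSAD2. MHC class I and antigen processing genes, which interferon induces, were called in 6 of 21 cases, all lower. HLA-B was 28.2, 27.7, 27.2, 27.9 and 29.5 CPM with sh1, 61.8, 53.3, 47.2, 60.8 and 70.3 CPM with sh4, and 70.7, 72.5, 68.5, 67.6 and 70.8 CPM with NC (log2 fold change -1.06, edgeR adjusted p = 1.28e-07). HLA genes resemble one another, so reads may be split between them. The peptide transporter gene TAP1 and the immunoproteasome genes PSMB8 and PSMB9, adjacent on chromosome 6, had -1.30, -1.35 and -2.10, and NLRC5, the transcriptional activator of class I genes, had -1.02. PSMB9 was at low levels, 0.287 CPM with sh1 and 1.21 with sh4.

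Imprinted genes are expressed from 1 parental copy. Of 30 tested, 3 were higher and 3 lower with sh1, 20% called. NLRP2, a gene of the NLR family (chromosome 19), stood at 149, 132, 151, 144 and 136 CPM with sh1, at 24.4, 18.3, 18.9, 23.3 and 20.6 CPM with sh4, and at 91.6, 88.5, 94.1, 89.2 and 74.5 CPM with NC (log2 fold change 2.75, edgeR adjusted p = 7.01e-13). NLRP7, of the same family and chromosome, was 8.02 ± 1.32 CPM with sh1, 2.0 ± 0.63 with sh4 and 0.817 ± 0.396 with NC. MKRN3 on chromosome 15, a ubiquitin ligase gene that restrains puberty, was 8.9 ± 1.18, 1.93 ± 0.27 and 3.22 ± 0.485 CPM. Lower were IGF2, NNAT and DLGAP2. NNAT, a small membrane protein gene of the developing brain (chromosome 20), stood at 42.2, 42.3, 41.5, 51.0 and 65.2 CPM with sh1, at 212, 221, 246, 238 and 245 CPM with sh4, and at 73.0, 91.6, 69.7, 78.7 and 105 CPM with NC (log2 fold change -2.26, edgeR adjusted p = 1.37e-10). DLGAP2 was under 1 CPM on average with each hairpin, its libraries overlapped, and its call was lost in 8 of 10 fits without 1 library.

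Of 285 tested zinc finger genes named ZNF, 7 were called, or 2.46%. ZNF512 was higher (4.39), as were ZNF154, ZNF334, ZNF747 and ZNF22, at 2.43, 1.59, 1.55 and 1.11. ZNF536 was also called higher but at very low levels, 1.19 ± 0.397 CPM with sh1, 0.0746 ± 0.0482 with sh4 and 1.93 ± 0.157 with NC, and 1 sh4 library had no count, so the size of its change is not given. ZNF154 was 12.9 ± 1.85 CPM with sh1, 2.39 ± 0.431 with sh4 and 43.5 ± 6.47 with NC. ZNF334 was 18.5 ± 2.28, 6.13 ± 0.582 and 59.5 ± 2.85 CPM. Both were lower than NC with each hairpin, and lower still with sh4. ZNF469, a gene of corneal and connective tissue integrity, was the 1 lower call, at 1.28 ± 0.362 CPM with sh1, 6.81 ± 0.361 with sh4 and 0.757 ± 0.155 with NC.

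Protocadherins are adhesion proteins, many of them made from clustered variable exons that mark single neurons. Of 32 tested, 7 were higher and 1 lower with sh1, with a median of 0.36. PCDHGA3 stood at 15.1, 13.8, 13.5, 13.9 and 17.3 CPM with sh1, at 1.53, 1.85, 1.49, 1.73 and 2.19 CPM with sh4, and at 25.2, 23.3, 28.3, 27.0 and 24.9 CPM with NC (log2 fold change 3.06, edgeR adjusted p = 2.5e-11). PCDHA6, PCDHGA7 and PCDHGA6 had 2.33, 2.44 and 1.16, with PCDHGA7 at only 1.69 CPM with sh1 and 0.306 with sh4. Members of a cluster share constant exons, so the split of reads between them is uncertain. Outside the clusters calls went in both directions, and PCDH1 was the 1 lower call (-1.21).

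Notch genes, which hold progenitors back from becoming neurons, had 3 lower calls of 20 and 0 higher, with a median of -0.62. The ligand gene DLL1 was 9.5 ± 1.5 CPM with sh1, 24.0 ± 1.69 with sh4 and 16.7 ± 1.49 with NC, DLL3 was 3.79 ± 0.77, 8.62 ± 0.9 and 10.1 ± 1.32 CPM, and the target HEYL was 2.6 ± 0.718, 10.2 ± 1.35 and 5.04 ± 0.448 CPM. Neuron genes had 1 higher call (LHX5) and 1 lower call (TH, the rate-limiting enzyme of dopamine synthesis, -1.24) of 28, with a median of -0.56. Of these 28 genes, 19 passed the adjusted p of 0.05, 1 of them higher and 18 lower with sh1. Over all tested genes 1326 passed it higher and 1431 lower. TUBB3, a neuronal tubulin gene, was 169 CPM with sh1, 338 with sh4 and 358 with NC, with a fitted change just short of the limit of 1.

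Axon guidance genes were called in 7 of 65 cases, 4 higher (CNTN6, EPHB1, EPHA6 and SEMA3F) and 3 lower (L1CAM, UNC5B and EFNA1). By the adjusted p of 0.05 alone, 10 were higher and 25 lower with sh1. CNTN6, an adhesion molecule of the contactin family, stood at 16.2, 19.2, 16.8, 13.8 and 13.6 CPM with sh1, at 3.34, 2.62, 1.75, 2.79 and 2.41 CPM with sh4, and at 38.9, 38.5, 40.5, 44.2 and 38.9 CPM with NC. Ion channel genes were called in 8 of 71 cases, 5 higher and 3 lower, among them the potassium channel genes KCNA1 (3.33 ± 0.883 CPM with sh1, 0.38 ± 0.17 with sh4, 9.42 ± 1.77 with NC), then KCNH1 (22.0 ± 1.97, 60.8 ± 14.3 and 27.3 ± 2.18 CPM). SLITRK4, a synapse-organising protein gene on chromosome X, was the 1 call among 49 synapse and transmitter receptor genes (2.88).

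Markers of other cell types were called in both directions. Of 13 genes of endothelium, blood and microglia, 2 were higher (HBE1 and TIE1) and 4 lower (RUNX1, FLT1, CLDN5 and ESAM), which is 46.2% called and the highest share among the 54 lists. The summed endothelial markers overlapped at 64.6 to 95.3 CPM with sh1, 62.4 to 114 with sh4 and 29.8 to 41.2 with NC. Of 22 epithelial genes 3 were higher (13.6%). CDH1, the epithelial cadherin, was 1.39 ± 0.336 CPM with sh1, 0.578 ± 0.302 with sh4 and 0.461 ± 0.0335 with NC, with libraries of the hairpins overlapping. The 4 epithelial markers listed, CDH1 among them, summed to 9.46 to 11.3 CPM with sh1, 7.31 to 8.93 with sh4 and 15.5 to 24 with NC. For this sum NC was thus the highest group, unlike for CDH1. The pigment cell markers summed to 62 to 68.2 CPM with sh1, 28.9 to 41 with sh4 and 110 to 163 with NC, with DCT called (1.39) and TYRP1 under 1 CPM in every library. Neuron markers summed to 171 to 246 CPM with sh1, 339 to 438 with sh4 and 357 to 463 with NC. The endodermal GATA4 was under 1 CPM throughout. What part such cells have in the calls above was not tested.

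The H3K36, Polycomb and DNA methylation lists, whose genes are tied to the target, gave no call between the hairpins. At a share of 4.44% over all tested genes, lists of this size hold few calls or none, so their absence says little. None of 21 enzymes and readers of H3K36 methylation was called, KDM2A included, and their log2 fold changes ran from -0.25 to 0.15. The 26 Polycomb genes ran from -0.50 to 0.18 and the 13 DNA methylation genes from -0.27 to 0.90, again with no call. MAPK feedback genes, which follow ERK activity, had 0 calls of 21 (-0.73 to 0.73) and MAPK cascade genes 1 of 44, RASGRF2, a RAS exchange factor gene (-1.20). Immediate early genes had 2 of 16, EGR2 and FOSB, both lower. DNA replication genes had 0 calls but lay to one side: 46 of 48 were above 0, with a median of 0.19 and a highest value of 0.36, and 31 passed the adjusted p of 0.05, all of them higher with sh1. Mitosis genes had 38 of 43 above 0 with a median of 0.11, and 14 passed that p, all higher. The 58 oxidative phosphorylation genes had a median of -0.01 and a range of -0.44 to 0.13.

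The place of NC relative to the hairpins is given as a description without a test, since the table was taken as chosen on NC. NC lay between the hairpin means in 70 of 196 genes called higher (35.7%) and 82 of 232 called lower (35.3%), and in 5.12% of all tested genes. A call requires a wide gap between the hairpins, which leaves more room for NC between them. A larger share among called genes is therefore favoured by the call itself. NC was above both hairpins in 98 genes called higher and 60 called lower, and below both in 28 and 90. Among genes called higher, the sh1 mean was nearer to NC in 132 and the sh4 mean in 64. Among genes called lower, these counts were 119 and 113.

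Calls were spread over all chromosomes, from 1.79% of the tested genes on chromosome 22 to 6.98% on chromosome 21. Chromosome medians of the log2 fold change ran from -0.029 on chromosomes 21 and 22 to 0.036 on chromosome 3. The running median over 31 neighbouring tested genes stayed within 0.1 of 0 in 95.6% of 8923 windows and ranged from -0.181 (around ZNF185 on chromosome X) to 0.234 (around PCDHGB1 on chromosome 5, in the protocadherin cluster). Runs of 3 adjacent tested genes called in the same direction were found 4 times: PSMB8, TAP1 and PSMB9 on chromosome 6, OAS1, OAS3 and OAS2 on chromosome 12, and OLFM2, COL5A3 and SHFL on chromosome 19 were lower, and WNT10B, WNT1 and DDN on chromosome 12 were higher. In the last run DDN was 5.44 ± 0.623 CPM with sh1, 2.48 ± 0.54 with sh4 and 10.7 ± 2.17 with NC, so all 3 genes were highest with NC and lowest with sh4.

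The same hairpin labels were compared in cerebral organoids at day 30, with 3 libraries per group and none shared with the NPCs. KDM2A was not lower than NC there (110 ± 6.97 CPM in libraries labelled sh1, 100 ± 4.79 in those labelled sh4, 102 ± 4.09 in those labelled NC, SD, n = 3 each), so the organoid labels are not checked by the target. Of the 179 genes higher with sh1 in NPCs that were tested in organoids, 30 were called higher (16.8%) and 27 lower (15.1%) in the libraries labelled sh1. Of the 220 lower genes, 49 were called higher (22.3%) and 55 lower (25%). Over all 9344 genes tested in both systems 6.59% were called higher and 7.59% lower, and over all 18845 organoid genes 7.32% and 11.3%. Genes called in NPCs thus had shares above those of all genes in both directions, with no test of either. The balance of directions in organoids depended on scaling. With library size alone in place of TMM, all log2 fold changes moved up by a median of 0.23, and calls over all organoid genes were 2052 higher and 1647 lower, against 1380 and 2138 with TMM. Of the genes higher in NPCs 27.4% were then called higher and 11.7% lower, and of the genes lower in NPCs 26.8% and 20.9%.

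**Figure D5:**
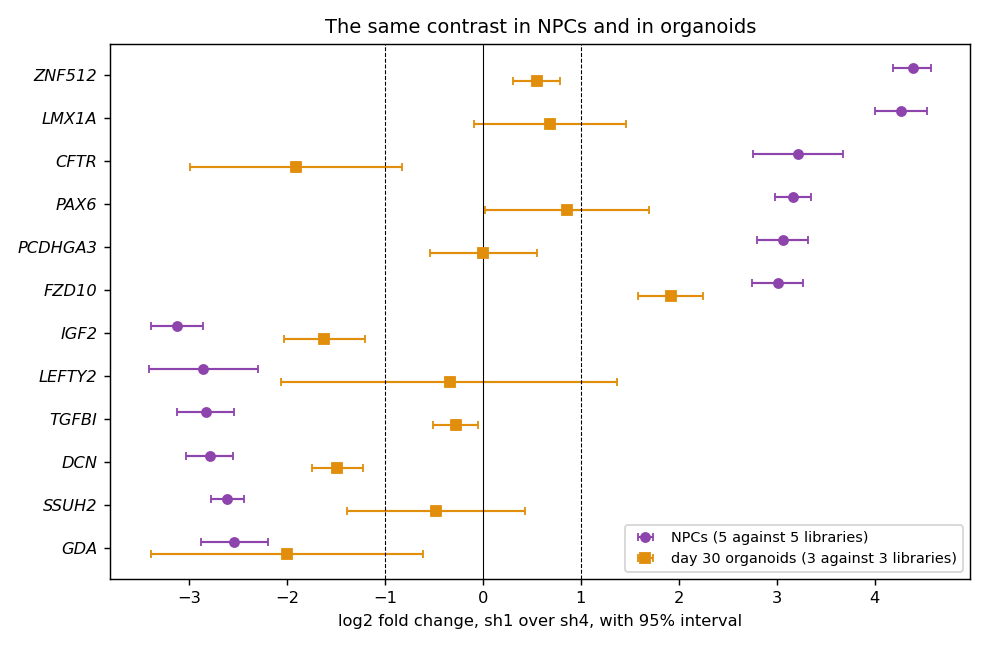
Log2 fold change of sh1 over sh4 with its 95% interval (horizontal) in NPCs and in day 30 organoids for the 6 highest and 6 lowest named genes (rows). FZD10, IGF2, DCN and GDA lie on the same side of the limit of 1 in size in both systems, and CFTR is on opposite sides of 0.

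For the 6 highest and 6 lowest named genes the difference between the systems was tested directly. They were picked for large changes in NPCs, which favours a larger contrast there than in organoids. FZD10 was 22.8 ± 1.62 CPM in organoids labelled sh1 and 6.03 ± 0.793 in those labelled sh4 (9.3 ± 2.55 with NC, SD, n = 3 each), a log2 fold change of 1.92 against 3.01 in NPCs. IGF2 was 4450 ± 928 CPM with sh1, 13700 ± 1760 with sh4 and 1650 ± 187 with NC (-1.62), and DCN 880 ± 80.4, 2470 ± 240 and 103 ± 29.3 CPM (-1.49), both in the NPC direction. ZNF512, almost absent from NPCs with sh4, was 114 ± 8.59 CPM in organoids labelled sh1, 77.7 ± 8.63 in those labelled sh4 and 116 ± 2.51 in those labelled NC (0.55, edgeR adjusted p = 0.00516). PCDHGA3 had no detectable difference, 17.7 ± 3.98 and 17.7 ± 4.45 CPM with sh1 and sh4 (95% interval of the log2 fold change -0.54 to 0.55). CFTR turned round, at 8.18 ± 2.72 CPM with sh1 and 30.9 ± 19.2 with sh4 (-1.91, edgeR adjusted p = 0.0136). Of 9967 genes fitted over both systems, 52.2% had a difference between them at an adjusted p under 0.05. It passed for 10 of these 12 genes, and it did not for LEFTY2 (-2.49, edgeR adjusted p = 0.0557) and GDA (-0.54, edgeR adjusted p = 0.407). The fit gave each gene 1 spread between libraries for both systems. The common biological coefficient of variation, a measure of that spread, was 0.074 in NPCs and 0.182 in organoids. For PAX6 the SE of the difference, 0.31, was below that of the organoid change alone, 0.36. The same held for SSUH2 and GDA and for no other of the 12. P-values of the difference, and the 52.2%, may therefore be too favourable.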

How the data were processed

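Poly(A)-selected RNA was sequenced and the authors deposited 1 unscaled table per system. STAR, featureCounts and GRCh38.p13 are named by the submitters' processing notes, and versions and settings are not given in the sources used here. Values that the authors deposited were treated like expected counts: 82.4% of the values in the NPC table and 91% in the organoid table were whole, and the rest had up to 2 decimals, whose origin was not tested. All were rounded before testing. Whether strand was used in counting is not given, so overlapping and antisense genes cannot be told apart.

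The filter was filterByExpr in edgeR 4.0.16, with a minimum count of 10 over the hairpin libraries compared. Scaling used TMM over all libraries of a system. The quasi-likelihood test in R 4.3.3 had group as its term, with Benjamini-Hochberg adjustment over every tested gene. Symbols of the NPC table cover 50.8% of RefSeq's protein-coding genes, so its totals are not library depth, and 10196 of 10221 matched RefSeq. Of 61544 organoid identifiers, 40778 had 1 symbol. The difference between systems was fitted over the 16 hairpin libraries of both. Tested on simulated data, the NPC step recovered 100% of 98 genes changed by 1.5 on the log2 scale and called 0 of 9570 unchanged genes. Replicates of a group differed beyond sampling noise in every pair, by a chi-square of 2.65 to 33.4 per degree of freedom in the NPCs. DESeq2 1.42.0, other scalings, no filter, all NPC libraries in 1 fit, a replicate block and fits without 1 library were alternatives.

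The comparison, the gene lists and the tests were chosen with earlier results of these data known. Named were KDM2A, the 15 highest and 15 lowest changes among called genes that have a RefSeq entry and a log2 CPM averaging 3 or more, and up to 5 called members of each list by adjusted p. Other named genes were chosen after their values were seen. The 54 lists cover chromatin, regional and cell type identity, signalling, matrix and adhesion, immunity, imprinting, cell cycle and metabolism.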

Additional observations from a re-analysis of the deposited data

Results flagged for a closer look

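In 10 of 356 groups of 5 libraries examined among the named genes, 1 library stood apart from the other 4, and chance alone flags about 1 in 20 groups. ZNF154 was 16.2 CPM in sh1 replicate 2 and 11.8 to 12.4 CPM in the other sh1 libraries, and INHBA was 29.1 CPM in the same library and 23.8 to 24.6 CPM in the others. CLDN5 was 1.16 CPM there, below 1.47 to 1.58 CPM, and BGN 13.9 CPM, below 17.3 to 17.9 CPM. PRRX1 was 8.64 CPM in sh1 replicate 5, below 11.2 to 12.1 CPM, and OAS1 was 2.35 CPM in that library, above 1.07 to 1.32 CPM. FOSB was 2.8 CPM in sh1 replicate 4 and 1.74 to 1.98 CPM in the others. Among the sh4 libraries, KCNJ12 was 1.63 CPM in replicate 4 and 1.03 to 1.18 CPM in the others, and LTBP2 was 32.5 CPM in replicate 3 and 37.3 to 39.1 CPM in the others. ZNF185, which was not called, was 10 CPM in that replicate and 13.1 to 13.7 CPM in the others. None of the 9 called genes among these lost its call in any fit without 1 library.

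The log2 fold change of sh1 over sh4 differed between NPCs and organoids for 10 of the 12 genes tested, by edgeR's quasi-likelihood test of that difference with Benjamini-Hochberg adjustment. The genes were picked as the 6 highest and 6 lowest changes in NPCs, so the choice itself favours a larger contrast in NPCs, and 52.2% of all genes passed the same test. The contrast in NPCs exceeded that in organoids by 5.14 for CFTR (adjusted p = 5.56e-07), 3.84 for ZNF512 (3.16e-12), 3.59 for LMX1A (5.99e-07), 3.06 for PCDHGA3 (9.89e-08), 2.31 for PAX6 (1.27e-05) and 1.10 for FZD10 (0.000177). It was more negative in NPCs for TGFBI (-2.55, adjusted p = 5.82e-08), SSUH2 (-2.13, 2.17e-05), IGF2 (-1.51, 2.49e-05) and DCN (-1.30, 3.64e-06). CFTR had fitted changes of opposite sign in the 2 systems. The organoid labels were not checked by the level of KDM2A. The test gave each gene 1 spread for both systems although organoid libraries varied more, so its p-values may be too small.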

How the results depend on the processing

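The counts of called genes kept within 1.5 times of 196 higher and 232 lower under every alternative run. They were 198 and 233 with a replicate block, 195 and 234 by DESeq2, 196 and 231 with library size alone, 196 and 233 with all 15 NPC libraries in 1 fit and 243 and 252 with no filter. The labels tie the replicate numbers to no shared culture or day, the deviations of same-numbered sh1 and sh4 libraries correlated at 0.414, 0.0775, 0.00886, -0.0759 and 0.467, and not every library correlated best with its own number. Without 1 library they ranged from 190 to 217 higher and from 224 to 243 lower, and the log2 fold change of KDM2A from -0.07 to -0.02. In organoids, where the 3 libraries a group limit precision, the counts ranged from 1063 to 1658 higher and from 1766 to 2172 lower without 1 library. With library size alone they were 2052 and 1647, or 55.5% of calls higher, against 39.2% with TMM. The difference between systems of LEFTY2 passed with library size alone (adjusted p = 0.0387), by DESeq2 (0.0011) and without NPC sh4 replicate 1, 2, 3 or 4 or organoid sh1 replicate 2 (0.00623 to 0.0494), and that of GDA without organoid sh4 replicate 1 (0.0174). Of 167 called genes followed, which include every called gene named, 149 kept the call in all 17 alternatives and 0 changed sign. A single library ended the call of BCL11A (-0.99 without sh1 replicate 5), COL4A4 (0.99 without sh4 replicate 1), OLFM2 (-0.99 without sh4 replicate 1), HLA-B (-0.99 without sh4 replicate 5) and SP8 (just under 1 without sh4 replicate 5). Leaving out either sh1 replicate 5 or sh4 replicate 1 ended that of IRX2 (0.96 and 0.97) and GBP1 (-0.96 and just short of the limit), and leaving out sh1 replicate 2 or sh4 replicate 1 that of NLRC5 (-0.96 and -0.98). SEMA3F lost it without sh4 replicate 3 (0.96) or 5 (0.93). TIE1 lost it without sh1 replicate 1 (adjusted p = 0.0519) or 5 (0.0583) or sh4 replicate 1 (0.79) or 3 (adjusted p = 0.0541). ESAM lost it with the replicate block (-0.99) and without sh1 replicate 5 (-0.96), sh4 replicate 1 (-0.82) or sh4 replicate 4 (-0.93). EPHA6 lost it with TMM over the hairpin libraries only (0.99) and without sh1 replicate 1 or 2 or sh4 replicate 2 or 4 (0.91 at the lowest). L1CAM lost it without sh1 replicate 1, 2 or 3 or sh4 replicate 2, 3 or 5 (-0.96 at the smallest), and NKD1 without the same libraries (0.98 at the lowest). FOXC2 lost it without sh1 replicate 1, 2 or 5 or sh4 replicate 1, 2 or 4 (-0.89 at the smallest). DISP3 lost it without sh1 replicate 1 or 3 or sh4 replicate 1 or 3 (-0.89 at the smallest), ESRP1 without sh1 replicate 2 or 5 or sh4 replicate 3 or 4 (0.94 at the lowest), and DLGAP2 (-0.89 at the smallest) without any library but sh1 replicate 3 and sh4 replicate 2. TUBB3, which fell just short of a call, was called in 8 of the 17. The number of genes under a low limit with one hairpin and at 8 CPM or more with the other was 0 at a limit of 1 CPM and 9 at 2 CPM.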
